A study of Mus musculus with 6 samples.

Results

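The simple epithelial keratins described here are 7 genes of the 24982 listed in the RNA-seq files, chosen by gene symbol. They are 3 type II keratins (*Krt7*, *Krt8* and *Krt80*) and 4 type I keratins (*Krt18*, *Krt19*, *Krt20* and *Krt23*). The RNA-seq compared 3 libraries of KSFM-Ca2+ cells with 3 libraries of DKSFM cells. The KSFM-Ca2+ cells are C57BL/6 keratinocytes from newborn mouse skin, derived and kept in a medium with little calcium. The DKSFM cells descend from the KSFM-Ca2+ cells that outlived a large loss of cells on transfer to a defined medium with more calcium, so that the line, the medium and the selection cannot be told apart. Neither line was treated. The values are mean read coverage per base of each gene, written to 1 decimal. As a measure of depth, the coverage of all genes added up to 1601676, 1238411 and 1057750 for KSFM-Ca2+ replicates 1 to 3, against 1174348, 1239438 and 1170675 for the DKSFM replicates. Each group is called a line here. Whether a replicate was a separately derived line, culture, passage or extract is not stated in the sources used here. The p-values therefore measure only the spread between these libraries, which may be technical.

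Keratins form intermediate filaments as obligate pairs, each of a type I and a type II protein. Single-layered epithelia such as those of gut and ducts are known for pairs of *Krt8* or *Krt7* with *Krt18*, *Krt19* or *Krt20*, whereas the basal layer of the epidermis is built on *Krt5* and *Krt14*. In healthy skin, simple keratins are known from Merkel cells, sweat glands and parts of the hair follicle. The question put to the data was how the levels of the simple keratins, and the balance of their type I and type II members, differed between the lines. Both lines expressed the keratinocyte markers that were looked up, with *Krt14* the most abundant of the 6 and none of them listed at 0.

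The simple keratins parted in direction between the lines. *Krt8* and *Krt18* were listed at 0.2 or less in the KSFM-Ca2+ cells and were well covered in the DKSFM cells. By contrast, *Krt7*, the most abundant member in all 6 libraries, was lower in the DKSFM cells. At low coverage, *Krt19* and *Krt23* were higher in the DKSFM cells, *Krt80* was higher by less than 2-fold, and *Krt20* was close to 0 in both lines. In limma's moderated test on log2(normalized coverage + 0.1), 6 of the 7 genes reached a normalized coverage of 0.5 in 3 or more libraries and were tested. At a Benjamini-Hochberg adjusted p under 0.01 and a change of at least 2-fold, 4 were called higher in the DKSFM cells and 1 lower. Of all 12409 genes tested, 13.2% were called higher and 10.5% lower by the same rule. *Krt80* passed the p threshold at less than 2-fold, as did 6065 of all genes tested; 72.6% of tested genes passed it at any size. For the 6 tested members the libraries of the lines did not overlap, which held for 83.3% of tested genes. The median log2 fold change was 2.36 over the 6 members and -0.001 over all tested genes. With a pseudocount of 1 in place of 0.1 the median of the members lay between 1.08 and 1.28, the values of *Krt19* and *Krt23*. The median and the counts describe the list only, because *Krt8*, *Krt18* and *Krt19* entered the test through their DKSFM libraries and had to differ.

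**Figure D1:**
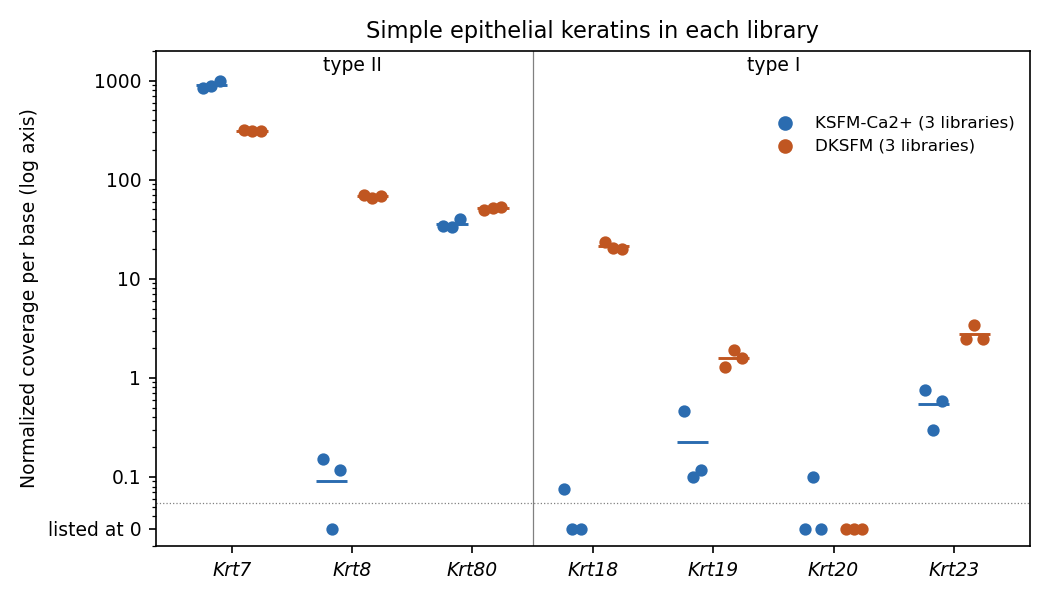
Normalized coverage per base (log axis) of the 7 simple keratins in each of the 6 libraries, 3 per line; bars are line means, drawn where they lie above the dotted line, under which values listed at 0 are placed. *Krt8* and *Krt18* move from the bottom of the plot to a mean of 67.8 and 21.2, whereas *Krt7* falls from 907 to 311.

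Because *Krt8* and *Krt18* moved together and *Krt7* moved against them, the 300 bases around the start of each of these genes are shown (RefSeq, GRCm38.p6; 250 bases before the annotated start and 50 after it, on the strand of the gene). The RefSeq starts lie inside the GENCODE spans given below for these genes, so that all of the *Krt7* window and parts of the other windows fall within those spans. The windows are chr15:101412153-101412452 on the plus strand for *Krt7*, chr15:102004293-102004592 on the minus strand for *Krt8* and chr15:102027966-102028265 on the plus strand for *Krt18*. Of the 7 members, 5 had a window. Capitals mark matches, on either strand, to any of 5 motifs. These were the TATA box, spelled TATAAA, the GC box, spelled GGGCGG, the AP-1 site, spelled TGANTCA, a form of the E-box, spelled CACCTG, and the CCAAT box, which is spelled as its name.
Krt7: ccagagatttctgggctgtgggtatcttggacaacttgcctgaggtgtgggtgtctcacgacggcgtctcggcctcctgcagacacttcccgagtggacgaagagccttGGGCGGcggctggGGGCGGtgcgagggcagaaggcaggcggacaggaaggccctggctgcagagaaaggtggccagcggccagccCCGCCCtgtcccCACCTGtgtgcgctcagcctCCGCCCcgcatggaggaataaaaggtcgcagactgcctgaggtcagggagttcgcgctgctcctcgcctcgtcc
Krt8: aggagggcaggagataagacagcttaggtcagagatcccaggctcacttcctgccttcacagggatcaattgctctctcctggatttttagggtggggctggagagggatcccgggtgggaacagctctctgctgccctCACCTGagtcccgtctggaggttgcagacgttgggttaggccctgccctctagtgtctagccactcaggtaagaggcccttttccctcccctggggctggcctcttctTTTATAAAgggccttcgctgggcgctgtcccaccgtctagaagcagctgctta
Krt18: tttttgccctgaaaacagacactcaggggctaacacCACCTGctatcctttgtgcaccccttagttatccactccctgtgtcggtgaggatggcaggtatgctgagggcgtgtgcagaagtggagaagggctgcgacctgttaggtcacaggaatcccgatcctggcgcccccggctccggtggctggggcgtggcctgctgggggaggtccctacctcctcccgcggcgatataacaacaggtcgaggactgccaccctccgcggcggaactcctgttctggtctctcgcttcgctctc
The *Krt7* window held 4 GC box matches and an E-box match, at positions -44 to -39 from the RefSeq start. That of *Krt8* held an E-box match at -111 to -106, and TATAAA read on either strand in overlapping letters at the RefSeq start itself. In the *Krt18* window only an E-box match was found among the 5 motifs, at -214 to -209. Among 32817 windows of the same length, TATAAA was found in 13.6%, GGGCGG in 35.6%, TGANTCA in 7.81%, CACCTG in 20.2% and CCAAT in 37.4%. A base composition of 66.3% G and C in *Krt7* compared with 58% in *Krt8* and 61.3% in *Krt18*. These letters are a description of the windows, and binding of any factor was not measured.

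*Krt8* (ENSMUSG00000049382.10, chromosome 15 from 101996698 to 102004482) encodes the type II keratin that single-layered epithelia share. For KSFM-Ca2+ replicates 1 to 3 its listed coverage read 0.2, 0 and 0.1, against 66.2, 64.7 and 64.6 for the DKSFM replicates. All DKSFM libraries were far above all KSFM-Ca2+ libraries, whose values were at or next to the rounding step of 0.1. After normalization the DKSFM libraries had 67.8 ± 2.87 (SD, n = 3), above 73.2% of tested genes. Even with each listed value at the edge of its rounding, the lowest DKSFM library was at least 339-fold higher than the highest KSFM-Ca2+ library (log2 fold change 8.59 on the pseudocount scale, standard error 0.31, adjusted p = 7.16e-08 in limma). That p-value adds no support, because *Krt8* entered the test through its DKSFM libraries and had to differ. Of the 50-base stretches of *Krt8* transcripts, 26.9% also occur in *Krt8-ps*, a pseudogene, so that some *Krt8* reads may have been split or lost. In bulk libraries, more cells of a kind and more RNA per cell cannot be told apart, for this gene and for those that follow.

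*Krt18* (ENSMUSG00000023043.7, chromosome 15 from 102028180 to 102032027) encodes the usual type I partner of *Krt8*, and is the only type I keratin gene of the type II cluster. Its listed coverage was 0.1, 0 and 0 in the KSFM-Ca2+ replicates and 22.0, 20.5 and 18.7 in the DKSFM replicates. As for *Krt8*, the lines were separated by a wide gap with little spread among the DKSFM libraries. The normalized DKSFM level was 21.2 ± 1.88 (SD, n = 3), at least 172.9-fold higher by the same rounding edges (log2 fold change 7.46, standard error 0.24, adjusted p = 3.78e-08 in limma). This p-value has the same limit as that of *Krt8*. With a pseudocount of 1 in place of 0.1 the log2 fold change was 4.4 for *Krt18* and 5.98 for *Krt8*. In the DKSFM libraries *Krt8* had 3.01, 3.16 and 3.46 times the coverage of *Krt18*, a mean ratio of 3.21 ± 0.227 (SD, n = 3). No such ratio can be given for the KSFM-Ca2+ cells, where both genes were near 0.

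*Krt7* (ENSMUSG00000023039.17, chromosome 15 from 101411043 to 101430313), a type II keratin of ducts, glands and bladder, went the other way. Its normalized coverage was 849.8, 879.5 and 992.4 in the KSFM-Ca2+ replicates and 314.2, 310.3 and 308.9 in the DKSFM replicates. Every KSFM-Ca2+ library lay above every DKSFM library, by more than the spread within either line. The means were 907 ± 75.2 and 311 ± 2.77 (SD, n = 3), lower in the DKSFM cells (log2 fold change -1.54, standard error 0.05, adjusted p = 6.07e-08 in limma). At these levels *Krt7* stood above 98.4% of tested genes in the KSFM-Ca2+ cells and 94.5% in the DKSFM cells. In the DKSFM cells *Krt7* still had 4.59 ± 0.179 times the coverage of *Krt8* (SD, n = 3). Reads that *Krt8* may have lost to *Krt8-ps* bear on every comparison of its coverage with other genes, which the SD does not show.

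*Krt80* (ENSMUSG00000037185.9, chromosome 15 from 101347444 to 101370162) is a type II keratin found in many epithelia. It had a normalized coverage of 34.2, 33.6 and 40.4 in the KSFM-Ca2+ replicates and 49.3, 52.1 and 53.4 in the DKSFM replicates. The lines did not overlap, and the difference was the smallest among the tested members (log2 fold change 0.52, standard error 0.07, adjusted p = 2.11e-04 in limma). It no longer passed the p threshold when the comparison was limited to the libraries deposited as combined, 1 of the KSFM-Ca2+ line and 3 of the DKSFM line (log2 fold change 0.35, adjusted p = 0.0119, against a range of 3.25e-05 to 0.0119 over the alternatives).

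The remaining type I members had little coverage. *Krt19* (ENSMUSG00000020911.14, chromosome 11 from 100140810 to 100148665), a short keratin without the usual tail domain, had listed values of 0.6, 0.1 and 0.1 for the KSFM-Ca2+ replicates, against 1.2, 1.9 and 1.5 for the DKSFM replicates. The lines did not overlap, KSFM-Ca2+ replicate 1 being nearest to the DKSFM libraries, and by the rounding edges the gap was at least 2.4-fold (log2 fold change 2.53, standard error 0.40, adjusted p = 4.75e-04 in limma). The p-value of *Krt19* has the same limit as those of *Krt8* and *Krt18*. *Krt23* (ENSMUSG00000006777.7, chromosome 11 from 99477974 to 99493137) had listed values of 1.0, 0.3 and 0.5 for the KSFM-Ca2+ replicates, against 2.3, 3.4 and 2.3 for the DKSFM replicates. All of its DKSFM values exceeded all of its KSFM-Ca2+ values (log2 fold change 2.19, standard error 0.30, adjusted p = 1.71e-04). Both sizes rest on the pseudocount: with 1 in place of 0.1 the log2 fold change was 1.08 for *Krt19* and 1.28 for *Krt23*. *Krt20* (ENSMUSG00000035775.2, chromosome 11 from 99428403 to 99438150), known from gut, bladder surface cells and Merkel cells, read 0.1 in KSFM-Ca2+ replicate 2 and 0 in the other 5 libraries, and did not enter the test.

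Among the members, the order of normalized coverage per base in the DKSFM cells was *Krt7*, *Krt8*, *Krt80*, *Krt18*, *Krt23*, *Krt19* and *Krt20*, and no neighbours in that order overlapped over the 3 libraries. In the KSFM-Ca2+ cells *Krt7* was followed by *Krt80*, with no overlap. Below them, *Krt23* (0.297 to 0.762) and *Krt19* (0.0989 to 0.457) overlapped, as did *Krt19* with *Krt8*, and *Krt8*, *Krt18* and *Krt20* were all at or next to the rounding step. The change in order was that *Krt8* and *Krt18* moved up from the rounding step, *Krt8* to a place above *Krt80* and *Krt18* to a place above *Krt23* and *Krt19*.

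The make-up of the simple keratin coverage changed with these levels. Summed over the 7 genes, normalized coverage was 885.5, 913.6 and 1033.6 in the KSFM-Ca2+ replicates and 460.9, 452.8 and 454.7 in the DKSFM replicates, a lower sum in every DKSFM library. *Krt7* made up 96.1% ± 0.159 of the sum in the KSFM-Ca2+ libraries and 68.2% ± 0.295 in the DKSFM libraries (SD, n = 3). The share of *Krt8* in the DKSFM libraries was 14.9% ± 0.515, that of *Krt80* 11.3% ± 0.555 and that of *Krt18* 4.65% ± 0.370. In the KSFM-Ca2+ libraries nearly all the rest was *Krt80*, with 3.82% ± 0.120. The exact permutation test over libraries gave p = 0.10 for the *Krt7* share, two-sided, which is the smallest p that 3 libraries against 3 can give. It was 1 of 5 such measures, each with p = 0.10 by exact permutation and 0.10 after Benjamini-Hochberg adjustment over the 5.

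**Figure D2:**
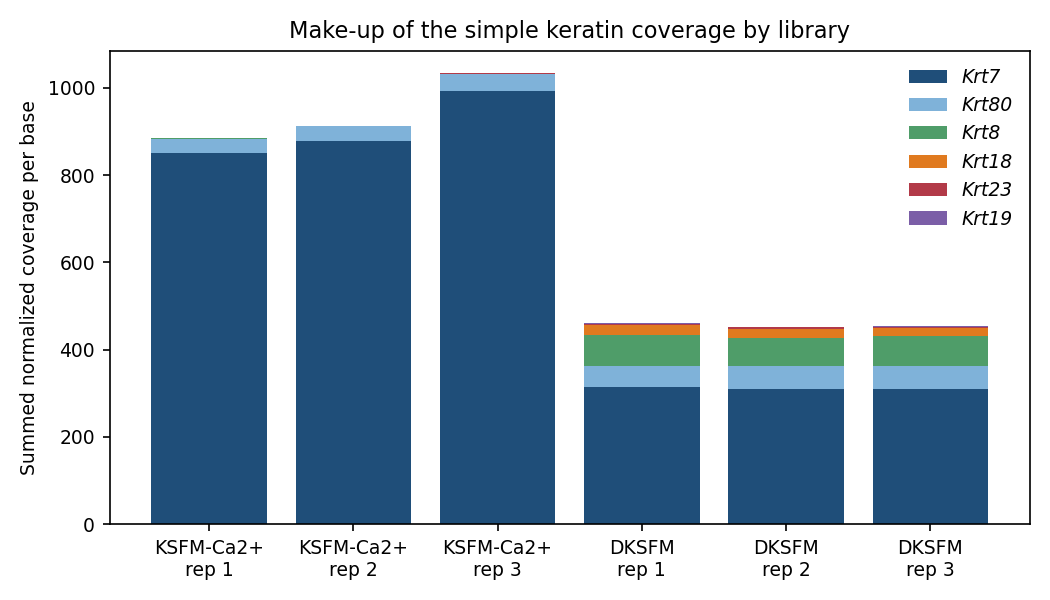
Normalized coverage per base of the simple keratins, stacked by gene, in each of the 6 libraries; *Krt20*, at or near 0, is not drawn. The DKSFM bars are about as tall as one another (452.8 to 460.9) and hold visible *Krt8* and *Krt18* segments, which the KSFM-Ca2+ bars lack.

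The balance of type I to type II simple keratins lay further toward type I in the DKSFM libraries. The type II sum was 943 ± 78.8 in the KSFM-Ca2+ libraries and 430.5 ± 3.41 in the DKSFM libraries, and the type I sum 0.833 ± 0.415 and 25.6 ± 1.62 (SD, n = 3). The ratio of type I to type II coverage was 0.00146, 0.000541 and 0.000685 in the KSFM-Ca2+ replicates and 0.0624, 0.0604 and 0.0554 in the DKSFM replicates. All DKSFM ratios were higher, and the ratio of the means was 66.2 (exact permutation p = 0.10, two-sided, n = 3). Even so, simple type II coverage exceeded simple type I coverage in all 6 libraries. The size of the shift rests on how members are combined: with the median of the members' log2 values in place of their sums, the difference between lines in mean log2 ratio was 2.46, not 6.18. *Krt18* made up 83.0% ± 3.41 of the simple type I coverage in the DKSFM libraries (SD, n = 3).

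Over all 53 listed genes with a keratin symbol, type I coverage exceeded type II coverage in both lines. The ratio was 1.79, 1.86 and 1.78 in the KSFM-Ca2+ replicates and 2.25, 2.31 and 2.27 in the DKSFM replicates. The lines did not overlap (1.81 ± 0.0399 and 2.28 ± 0.0267, SD, n = 3; exact permutation p = 0.10). The sums were carried by *Krt14* and *Krt5*, and without these genes the difference between lines in mean log2 ratio was 1.16, not 0.33. The ratio of *Krt5* to *Krt14* itself was 0.391 ± 0.00874 in the KSFM-Ca2+ libraries and 0.375 ± 0.00846 in the DKSFM libraries (SD, n = 3). In both lines most type I coverage lay outside the simple keratins, and which proteins paired was not measured.

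**Figure D3:**
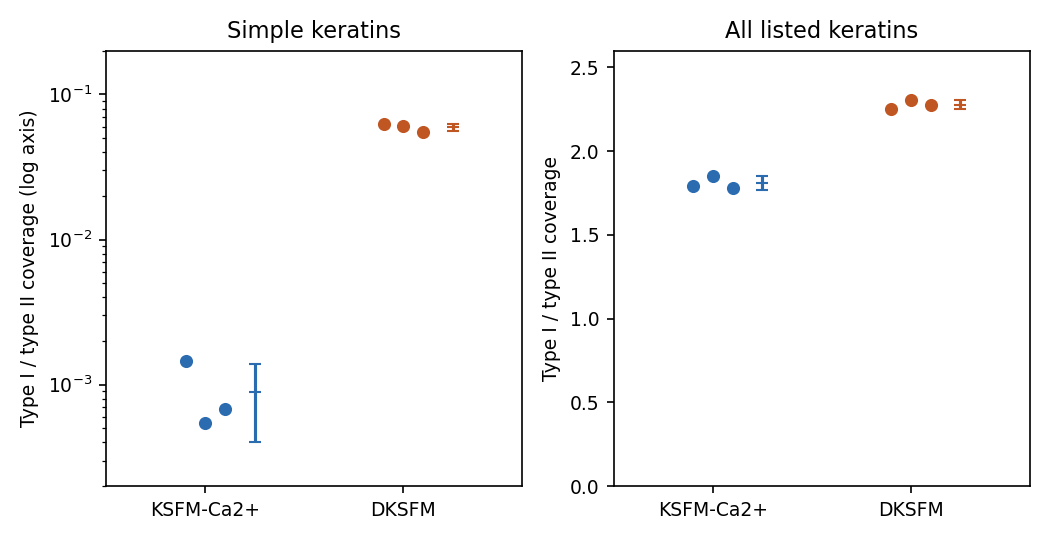
Ratio of type I to type II coverage in each library, for the simple keratins (left, log axis) and for all 53 listed keratins (right, axis from 0); the bar beside the points is the mean with its SD (n = 3). The simple keratin ratio is 0.000897 in the KSFM-Ca2+ cells and 0.0594 in the DKSFM cells on average, and that of all keratins 1.81 and 2.28.

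Set against all keratins, the simple keratins had a smaller share in the DKSFM libraries. They held 4.46%, 4.49% and 5.05% of all keratin coverage in the KSFM-Ca2+ replicates and 0.953%, 1.02% and 0.931% in the DKSFM replicates. All DKSFM shares were lower (exact permutation p = 0.10, two-sided, n = 3), with more coverage of the other keratins and less of *Krt7*. *Krt7* alone was 12.6% ± 0.787 of type II coverage in the KSFM-Ca2+ libraries and 2.17% ± 0.135 in the DKSFM libraries (SD, n = 3, exact permutation p = 0.10). The log2 difference in the *Krt7* share was -2.5, and -1.9 without *Krt5* and *Krt14*. Over the same comparison the sum of all type II keratins went from 7199 ± 144 to 14381 ± 885.6, and that of all type I keratins from 13024 ± 260.1 to 32743 ± 1686 (SD, n = 3).

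Of the 21 keratin genes tested, 16 were called higher in the DKSFM cells, and *Krt7* was the only one called lower, beside 13.2% and 10.5% of all tested genes. Of these 21, *Krt8*, *Krt18*, *Krt19*, *Krt32*, *Krt78* and *Krt79* entered the test through their DKSFM libraries and had to differ. *Krt7* was also the only one of the 21 with a log2 fold change below 0 in the main fit. *Krt42* was below 0 as well under quantile normalization, without KSFM-Ca2+ replicate 2 and with the combined libraries alone, and without the filter on low values 8 of 41 keratins were. The 15 tested keratins outside the simple group had 12 genes called higher, 0 lower, and a median log2 fold change of 2.04, both of which include *Krt32*, *Krt78* and *Krt79*. With the filter in every library only 13 of the 21 keratins were in the fit. Of those, 8 outside the simple group were called higher, where 1032 of all genes were. Without the filter, *Krt39* was also called lower (mean normalized coverage 0.490 in the KSFM-Ca2+ cells and 0.0707 in the DKSFM cells). Of the partner keratins, *Krt13* and *Krt15*, both type I, had log2 fold changes of 4.64 and 4.88, and *Krt17*, another type I keratin, 1.09. *Krt10*, a suprabasal type I keratin, passed the p threshold at less than 2-fold (log2 fold change 0.49), and its partner *Krt1* was not tested, with 0 in all KSFM-Ca2+ libraries and a mean of 0.514 in the DKSFM libraries. *Krt4*, the usual partner of *Krt13*, was near the rounding step in both lines.

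*Krt8* and *Krt18* are neighbours at an end of the type II cluster of chromosome 15, with 23697 bases between them and opposite strands. Next in order lie *Krt78*, 42410 bases from *Krt8*, and *Krt79*, a further 5676 bases on. These genes were also near 0 in the KSFM-Ca2+ cells and higher in the DKSFM cells. *Krt78* had a normalized coverage of 0.152, 0.198 and 0.118 in the KSFM-Ca2+ replicates and 9.02, 11.1 and 8.59 in the DKSFM replicates, and *Krt79* was listed at 0 in the KSFM-Ca2+ libraries and reached 6.56 ± 0.841 in the DKSFM libraries (SD, n = 3). *Krt4*, next to *Krt79*, was not tested. *Krt7* and *Krt80* lie at the other end of the cluster, 40880 bases apart, and *Krt7* is 566384 bases from *Krt8*. *Krt19* and *Krt23* lie in the type I cluster of chromosome 11, apart from each other, and *Krt19* sits next to *Krt15*.

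**Figure D4:**
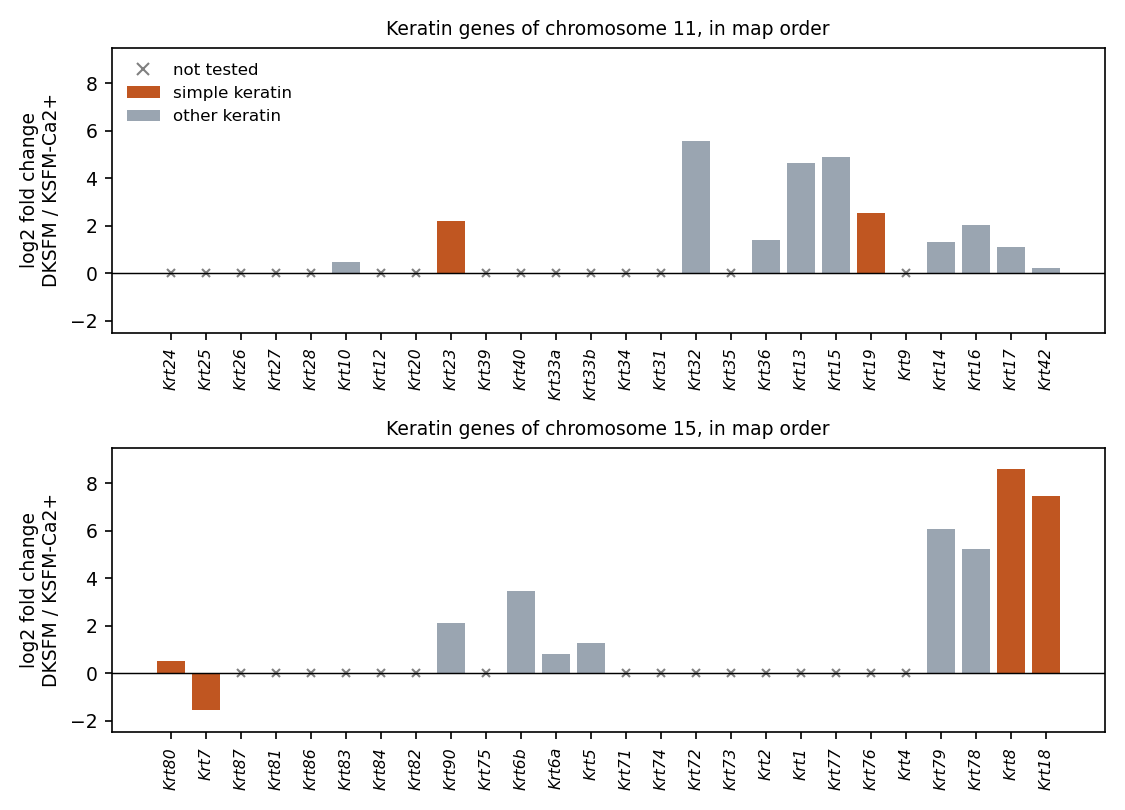
Log2 fold change (DKSFM over KSFM-Ca2+) of each keratin gene in map order on chromosomes 11 and 15; crosses mark genes not tested. *Krt79*, *Krt78*, *Krt8* and *Krt18* stand side by side at the right end of chromosome 15 with log2 fold changes of 6.05, 5.24, 8.59 and 7.46, which depend on the pseudocount because the KSFM-Ca2+ values were near 0.

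The non-keratin genes beyond *Krt18* were well covered in both lines, unlike *Krt8* and *Krt18*. *Eif4b*, a translation factor gene 41745 bases on with means of 239 and 228, overlapped between lines (log2 fold change -0.07, adjusted p = 0.0926 in limma). *Tns2*, a focal adhesion gene, passed at less than 2-fold (log2 fold change 0.69, adjusted p = 7.40e-06), and *Spryd3* did not pass (log2 fold change 0.10, adjusted p = 0.0635). On the side of *Krt8*, the nearest genes without a keratin symbol lay within or beyond the keratin cluster: *Gm5478* and *6030408B16Rik* were not tested, and *Gm5414* was called higher (log2 fold change 3.05, adjusted p = 0.00365) with KSFM-Ca2+ replicate 2 listed at 1.3 against 0.1 in the other KSFM-Ca2+ libraries. By root mean square difference of log2 values over the 6 libraries, the genes most like *Krt8* included *Dact2* and *Fbln1* (0.527 and 0.699). Those most like *Krt18* were *Slc25a13*, *Sectm1b* and *Cyp2f2* (0.111, 0.347 and 0.35). *Krt8* and *Krt18* differed from each other by 1.29 on this measure, *Krt8* having the higher coverage in every DKSFM library.

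Genes that anchor or bind keratin filaments were read next. Of 15 tested, 5 were called higher in the DKSFM cells and 0 lower, beside 13.2% and 10.5% of all tested genes. A further 7 passed the p threshold at less than 2-fold and 3 did not pass, where 72.6% of all tested genes passed at any size. The median log2 fold change was 0.71 against -0.001 for all tested genes. *Ppl* and *Dsp*, which encode periplakin and desmoplakin, had log2 fold changes of 1.53 and 1.27. *Ywhaz*, an adaptor protein gene with means of 923 and 933, did not pass (log2 fold change 0.02). *Plec*, which encodes the linker plectin, was the only one of the 15 below 0, with 570 ± 30.8 in the KSFM-Ca2+ libraries and 437 ± 42.5 in the DKSFM libraries (SD, n = 3; log2 fold change -0.39, adjusted p = 0.00110).

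Among other intermediate filament genes the lamins were well covered and the rest were not. Of 13 listed, only the lamin genes *Lmna*, *Lmnb1* and *Lmnb2* were tested, and 5 were listed at 0 in all libraries. *Lmnb1* was called lower in the DKSFM cells (log2 fold change -1.03), though not under quantile normalization or without DKSFM replicate 2. *Lmnb2* was lower and *Lmna* higher, both past the p threshold at less than 2-fold (log2 fold changes -0.40 and 0.86). Of all tested genes, 10.5% were called lower, 13.2% were called higher and 72.6% passed the p threshold at any size. *Vim*, the filament gene of mesenchymal cells, had a mean of 0.0723 in the KSFM-Ca2+ libraries and 0.418 in the DKSFM libraries and was not tested; without the filter on low values it was called higher. *Des*, the filament gene of muscle, had means of 0.683 and 0.0354 and was not tested in the main fit; it was called lower without KSFM-Ca2+ replicate 2 or 3 or any 1 DKSFM replicate, where the filter asked for 2 libraries, and there it entered through its KSFM-Ca2+ libraries.

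For surface and junction genes of simple epithelia, 9 genes were read, of which 5 were tested. Of these, 2 were called lower in the DKSFM cells, 2 passed the p threshold at less than 2-fold and 1 did not pass, where 10.5% of all tested genes were called lower and 72.6% passed at any size. The median log2 fold change over the 5 was -0.53, against -0.001 for all tested genes. *Epcam*, which encodes an adhesion molecule of simple epithelia, had 266.8, 269.6 and 277.4 in the KSFM-Ca2+ replicates and 97.03, 95.03 and 95.2 in the DKSFM replicates (log2 fold change -1.50, adjusted p = 2.81e-09), and so was lower along with *Krt7*. *Muc1*, a mucin gene at low coverage, was the one tested gene of these above 0 and did not pass (log2 fold change 0.98, adjusted p = 0.0158 in limma), having entered the test through its DKSFM libraries; without KSFM-Ca2+ replicate 2 it was called higher, entering in the same way. *Cldn4* was called lower (log2 fold change -1.03), close to the 2-fold line, and was not called under quantile normalization or without KSFM-Ca2+ replicate 3 or DKSFM replicate 1. *Cldn3* and *Cldn7* were listed at 0 in all libraries.

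Of 16 epithelial transcription factor genes 15 were tested, with 4 called higher, 0 lower, 9 past the p threshold at less than 2-fold and 2 not past it, where 13.2% of all tested genes were called higher, 10.5% lower and 72.6% were past it at any size. The median was 0.48, against -0.001 for all tested genes. The called genes were *Ehf*, of the ETS family (log2 fold change 2.23), the grainyhead-like genes *Grhl1* (2.10) and *Grhl3* (1.22), and *Klf4*, a factor of barrier formation (1.75). *Grhl2*, the only one of the 15 below 0, passed the p threshold at less than 2-fold (log2 fold change -0.18). *Trp63*, which is needed for the epidermis, was the most abundant, at 404.5 ± 12.2 in the KSFM-Ca2+ libraries and 443 ± 12.6 in the DKSFM libraries (SD, n = 3).

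**Figure D5:**
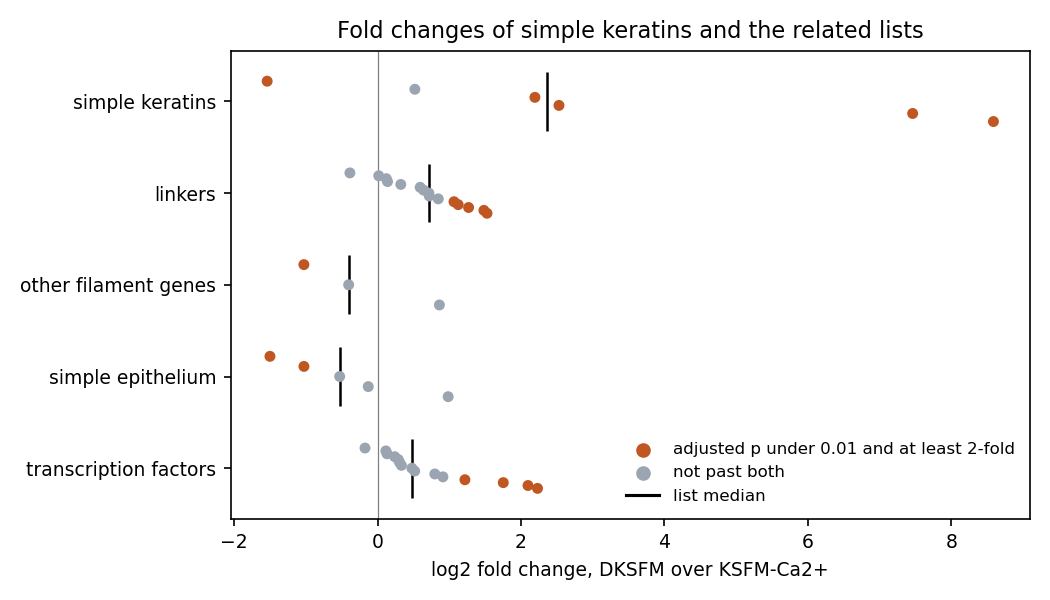
Log2 fold change (DKSFM over KSFM-Ca2+) of each tested gene of the simple keratins and 4 related lists; filled orange points had an adjusted p under 0.01 with at least a 2-fold change, and black bars are list medians. The simple keratins run from -1.54 to 8.59 with a median of 2.36, and the linker genes have a median of 0.71. The upper end and the median of the simple keratins depend on the pseudocount.

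Markers of other cell types, some of which carry simple keratins, were read beside these results. Of 10 Merkel cell markers, 6 were listed at 0 in all libraries, *Atoh1*, *Piezo2* and *Chga* among them, and the summed coverage was lower in the DKSFM libraries (13.1 to 16.2) than in the KSFM-Ca2+ libraries (25.8 to 28.8). *Ncam1*, most of the KSFM-Ca2+ sum, fell from a mean of 22.04 to 5.75. *Sox2*, which was above *Ncam1* in every DKSFM library, rose from 3.97 to 7.69 (log2 fold change 0.95, adjusted p = 3.64e-04 in limma). Of 5 sweat gland markers *Foxi1* and *Bsnd* were at 0, and the sum, mostly *Aqp5*, was 0.989 to 1.22 in the KSFM-Ca2+ libraries and 4.996 to 5.63 in the DKSFM libraries. For 5 urothelium markers the sums were 0.305 to 0.590, mostly *Upk1a*, and 173 to 204, nearly all *Upk1b*, with *Upk3a* at 0. Of 7 sebaceous gland markers *Mc5r*, *Awat1* and *Pparg* were at 0, and the sum, mostly *Scd1*, was 59.6 to 61.1 and 46.5 to 49.5, although *Krt79*, also on this list, went from 0 to a mean of 6.56. The sum of 6 hair follicle markers, with *Lgr6* at 0, was 42.8 to 51.6, mostly *Sox9*, and 432 to 463, mostly *Krt15*. Of 6 fibroblast markers 5 were at 0, and the rest, *Pdgfra*, was 0.890 to 1.30 and 2.10 to 2.34. Of 4 endothelial markers *Cdh5* was at 0, and the sum, mostly *Pecam1*, was 2.82 to 3.30 and 7.42 to 8.29. *Dct* and *Tyr* of 5 melanocyte markers and *Cd3e* of 4 immune markers were at 0, and the sums of these lists were under 1 in every library. The summed urothelium, sweat gland, hair follicle, fibroblast and endothelial markers, and *Sox2* and *Krt79*, thus moved with *Krt8* and *Krt18*, and their part in the keratin differences was not tested. *Krt15* and *Krt79* are themselves keratins. Not every gene of these lists moved this way: *Foxa1* of the sweat gland list and *Cd34* of the hair follicle list, with means of 0.202 and 0.131 in the KSFM-Ca2+ libraries, were at 0 in all DKSFM libraries. *Isl1* of the Merkel cell list did not pass (log2 fold change 0.15, adjusted p = 0.634 in limma). *Tek* of the endothelial list had means of 0.261 and 0.210 and overlapped between lines.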

How the data were processed

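RNA was measured in 6 libraries, 3 per line, grouped by their labels. The authors prepared directional poly(A) libraries, aligned single reads to mm10 (RefSeq) with STAR, quantified them with Salmon and deposited a signal, the mean read coverage per base of each gene to 1 decimal. How coverage was computed, and the word combined on KSFM-Ca2+ replicate 3 and all DKSFM libraries, are not explained in the sources used here. Coverage is not a count, so the comparison used limma 3.58.1 (R 4.3.3; intensity trend) on log2(normalized coverage + 0.1), scaled by trimmed means of M values without weights (trims of 30% and 5%). Genes below a normalized coverage of 0.5 in more than 3 libraries were left out; p-values were Benjamini-Hochberg adjusted over all tested genes; calls needed an adjusted p under 0.01 and a 2-fold change. Single ratios were tested by exact permutation over libraries. Low values are limited by the rounding step of 0.1. Named genes were the members, fixed lists, the nearest 3 neighbours on each side and the 3 genes most like *Krt8* and *Krt18*; positions came from GENCODE M21. From these, 1 surface gene, left out of its list and its counts, and 1 gene like *Krt8* are not reported here. The members and lists were chosen with earlier results of these data known. Alternatives were other scalings, filters and pseudocounts (0.5 and 1), no trend, an adjusted p of 0.05, a replicate block, each library left out, and the combined libraries alone. Python 3.11.15, pandas 2.3.3 and matplotlib 3.10.9 were used. The procedure was tested on simulated data.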

Additional observations from a re-analysis of the deposited data

How the results depend on the processing

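*Krt7*, *Krt8*, *Krt18*, *Krt19* and *Krt23* kept their direction and their call under each alternative that tested them, with log2 fold changes of -1.67 to -1.47, 5.98 to 8.79, 4.43 to 7.66, 1.08 to 2.97 and 1.28 to 2.42. Apart from the fit without the filter, *Krt8*, *Krt18* and *Krt19* entered these fits through their DKSFM libraries and had to differ. *Krt80* kept its direction (0.35 to 0.60). With the filter in every library *Krt8*, *Krt18*, *Krt19* and *Krt23* were not tested, so that 0 members were called higher, and 1032 genes were called higher. Of the related lists together, 3 genes were called lower and 21 higher, where 1307 (10.5%) and 1636 (13.2%) of all tested genes were. These lists held 15 other keratin, 15 linker, 3 other filament, 5 simple epithelium and 15 transcription factor genes tested in the main fit. Without the filter 6 were called lower (*Des*, *Nefh* and *Krt39* besides) and 26 higher, where 1484 and 1971 of all genes were. With quantile normalization 1 was called lower (*Epcam*, without *Cldn4* and *Lmnb1*) and 19 higher, where 1471 and 1461 of all genes were. The number of genes tested changed with the filter, so counts under other filters are not shares to set beside those of the main fit. The log2 difference in the simple type I to type II ratio was 2.46 with the median of log2 values (6.18 from sums). That of all keratins was 1.16 without *Krt5* and *Krt14* and 1.03 with the median (0.33 from sums). Without *Krt5* and *Krt14* the simple keratin share of all keratins differed by -1.86 (-2.27 with them) and the *Krt7* share of type II by -1.91 (-2.54 with them). The median cannot give a share. Libraries with the same number did not deviate together (correlations of -0.005, 0.024 and -0.006), and with the replicate block 4 members were called higher and 1 lower, among 1641 and 1304 genes. Where a library was left out the filter asked for 2 libraries. With the combined libraries alone, the single KSFM-Ca2+ library is assumed to vary like the DKSFM libraries. The causes of these shifts were not tested.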
